A study of Mus musculus with 6 samples.

Results

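The genes described here belong to the LIN28 pathway and to a small set of factors that are active in the early mouse embryo. They are *Lin28a*, *Lin28b*, *Trim71*, *Nr6a1*, *Sall4*, *Igf2bp1*, *Igf2bp2*, *Igf2bp3*, *Hmga2* and *L1td1*. The 10 genes were chosen by symbol, with their FPKM values in these embryos already known, so the difference between genotypes is given as a description and no test of it was made. Each symbol was found at 1 locus, giving 10 of the 24207 loci of the deposited table, and all but *L1td1* (9 of 10) had a mean over both genotypes of 1 FPKM or above.

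RNA was sequenced from 6 male embryos dissected at E9.5, of which 3 were Smchd1+/+ (wildtype) and 3 were Smchd1MommeD1/MommeD1 (mutant). Mutants carry 2 copies of MommeD1, a chemically induced nonsense allele of *Smchd1* that is carried in every cell. *Smchd1* encodes a chromosomal protein needed for X inactivation, and the study asked which autosomal genes depend on it in males. Whole embryos were used, their labels name C57Bl6/J and FVB/n as the strains, and the study's text gives another background strain. For each locus the table gives 1 FPKM value in mutants and 1 in wildtype embryos, each pooled over 3 embryos, where FPKM is the number of fragments scaled to transcript length and to the mapped fragments of the library. There is therefore no spread between embryos to set a difference against, the depth of each library is unknown, and no value below has a replicate check. *Smchd1* transcripts were at 2.12 FPKM in mutants and 34.0 FPKM in wildtype embryos, which matches the labelled genotypes. All 12 markers listed for a midgestation embryo, among them *Sox2* (neural tube), *Meox1* (somite), *Myl7* (heart) and *Cdh5* (vessels), were at 1 FPKM or more.

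LIN28A and LIN28B are RNA-binding proteins that block maturation of the let-7 family of microRNAs, and let-7 in turn represses the transcripts of both. TRIM71, IGF2BP1 to IGF2BP3 and HMGA2 are also encoded by well-known let-7 targets. Proteins of this circuit are abundant in the early embryo and decline as tissues differentiate, which is why the circuit is used as a developmental timer. NR6A1, also called germ cell nuclear factor, is an orphan nuclear receptor that silences *Pou5f1* after gastrulation and is required for axial extension of the trunk. SALL4 is a zinc finger factor of pluripotent cells and of early limb and tail tissue, and L1TD1 is an RNA-binding protein of pluripotent cells that associates with LIN28.

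The sequence that ties most of these genes together is the let-7 seed, bases 2 to 8 of the mature microRNA. The 9 different mature sequences of the family taken from RefSeq (GRCm38.p6), counting miR-98, all carry the same seed. The miR-125 family, which targets *Lin28a*, has its own seed, shared by the 2 mature sequences taken. A representative let-7, a let-7 with another first base, a let-7 with another 3′ part and a miR-125 are shown, with the seed in capitals.
mmu-let-7a-5p: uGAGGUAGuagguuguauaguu
mmu-let-7d-5p: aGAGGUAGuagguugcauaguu
mmu-let-7i-5p: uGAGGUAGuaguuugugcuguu
mmu-miR-125b-5p: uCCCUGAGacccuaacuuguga

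Matches to these seeds were searched on the transcript strand, in the 3′ UTR of the longest coding transcript of each gene in GENCODE M21 (GRCm38, the same build as MM10). The motif was CTACCTC for let-7 and CTCAGGG for miR-125, and matches of the 2 motifs did not overlap in these genes. Of the 10 genes, 9 held at least 1 let-7 match and 6 held 2 or more, 29 matches in all, of which 17 also had an A opposite the first base of let-7. Among all 20935 genes with a 3′ UTR, 8.84% held at least 1 such match and 1.07% held 2 or more. The genes were chosen as members of this pathway, so their share is set by that choice. *Nr6a1* had 8 let-7 matches, *Hmga2*, *Igf2bp1*, *Lin28b* and *Trim71* had 4 each, *Lin28a* had 2, and *Igf2bp2*, *Igf2bp3* and *Sall4* had 1 each. *L1td1*, whose 3′ UTR has 364 bases, had none of these letters. A miR-125 match was found in 5 of the 10, namely *Lin28a*, *Lin28b*, *Nr6a1*, *Trim71* and *Igf2bp3*, against 13.0% of all genes. The shares over all genes are not matched for 3′ UTR length. The median length was 937 bases over all genes, and these 5 had 2119 to 5512 bases. A match is a description of the letters and not evidence of binding.

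The sites below are shown because they are the matches with an A after the seed in the genes whose levels are compared next, 1 for each gene that has one. For *Trim71* a second is added that lies 26 bases from the first, and for *Lin28a* and *Nr6a1* the second of their kind is added. Coordinates are those of GRCm38, all on the minus strand, and the letters run 5′ to 3′ along the transcript with the seed match in capitals.
Nr6a1, chr2:38727446-38727470: gttgacaaagacaaCTACCTCaatg
Nr6a1, chr2:38726589-38726613: aaaggggcattaaaCTACCTCatgt
Lin28a, chr4:134005186-134005210: cacagcctgttgaaCTACCTCattt
Lin28a, chr4:134004548-134004572: agatcgccacaaacCTACCTCactg
Lin28b, chr10:45381019-45381043: cccgggcgggaagtCTACCTCatgc
Trim71, chr9:114509044-114509068: ttagtatggattttCTACCTCaatt
Trim71, chr9:114509018-114509042: tggcaaaaagttgtCTACCTCacgt
Sall4, chr2:168748937-168748961: gggctttaatttatCTACCTCaatt
Hmga2, chr10:120364221-120364245: ccgacattcaatttCTACCTCagca
Igf2bp1, chr11:95959354-95959378: agcagtgctattaaCTACCTCagcc
Igf2bp2, chr16:22059470-22059494: cacacaaataaaagCTACCTCaggt
Igf2bp3, chr6:49086784-49086808: gcatttttactcaaCTACCTCaggt

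The miR-125 match of *Lin28a* lies on chromosome 4 of GRCm38 from 134005298 to 134005322, ahead of both of its let-7 matches in the transcript, and is shown as the site of the other microRNA of this circuit.
Lin28a, miR-125 match: ggtacatgagcaatCTCAGGGataa

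**Figure D1:**
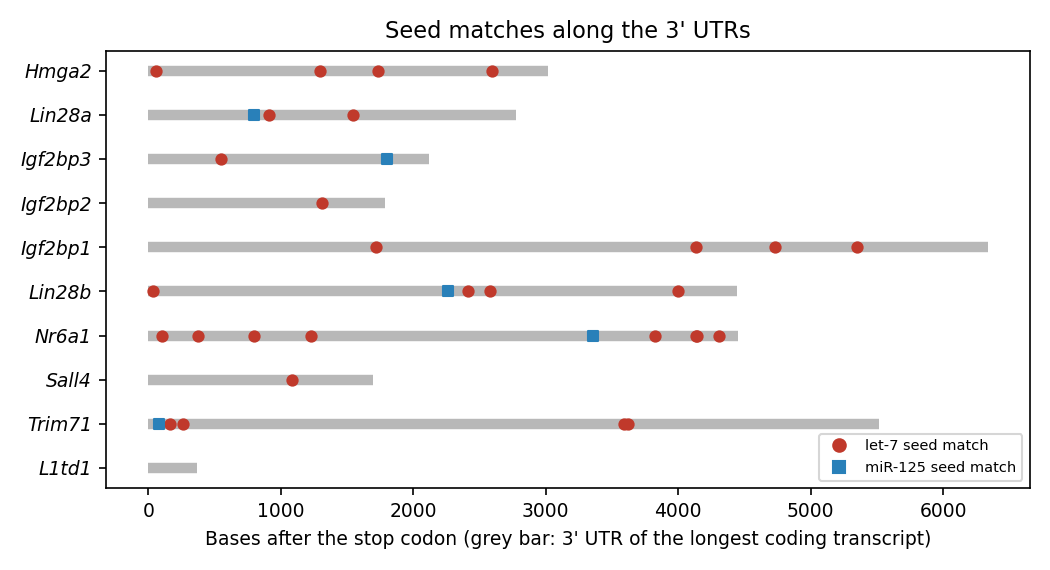
Seed matches along the 3′ UTRs of the 10 genes. The x axis gives bases after the stop codon, grey bars span the 3′ UTR, circles are let-7 matches and squares are miR-125 matches. *Nr6a1* carries 8 let-7 matches over 4453 bases, in a group of 4 near the start and a group of 4 near the end, whereas *L1td1* carries none.

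Transcripts of the 10 genes spanned a wide range in wildtype embryos, and the FPKM scale, which is per length, allows them to be ordered. *Hmga2* was highest at 212 FPKM, followed by *Lin28a* (171 FPKM), *Igf2bp3* (93.2 FPKM), *Igf2bp2* (87.2 FPKM), *Igf2bp1* (86.8 FPKM), *Lin28b* (47.1 FPKM), *Nr6a1* (43.3 FPKM), *Sall4* (25.7 FPKM), *Trim71* (20.9 FPKM) and *L1td1* (0.775 FPKM). *Hmga2* ranked 459 and *Lin28a* 561 among the 24207 loci in wildtype embryos. The order of the 10 genes was the same in mutant embryos, although neighbours drew together or apart. *Lin28a* came down to the level of the *Igf2bp* genes, and *Nr6a1* to that of *Sall4*, at 19.6 and 19.1 FPKM. Without values per embryo it cannot be said which neighbours in this order differ beyond their spread.

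**Figure D2:**
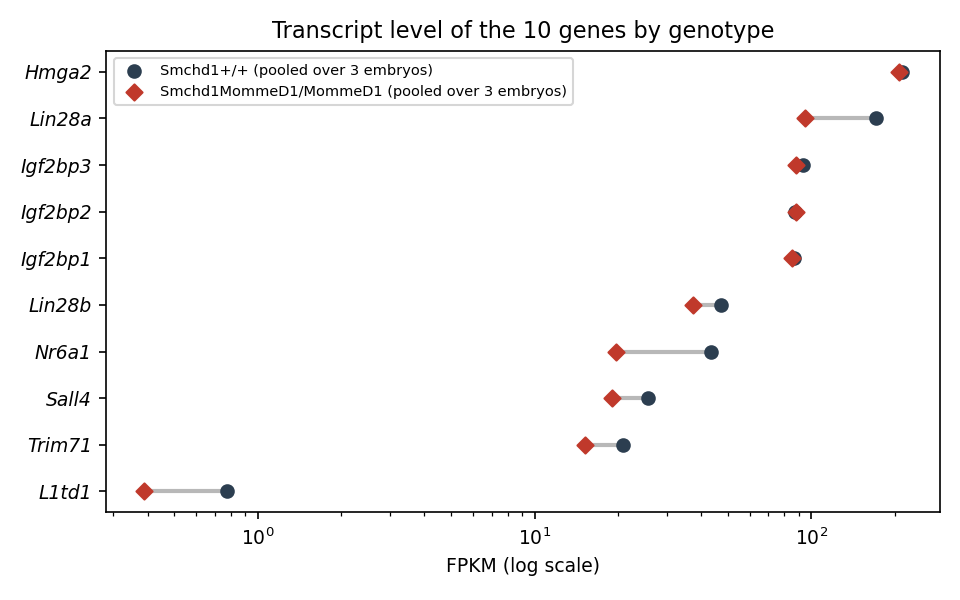
Level of each of the 10 genes in wildtype (circles) and mutant (diamonds) embryos, as the authors' pooled FPKM on a log scale. *Nr6a1*, *Lin28a* and *L1td1* show the widest gaps, and the 3 *Igf2bp* genes and *Hmga2* show nearly coinciding points.

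Differences between genotypes are given as the log2 ratio of mutant over wildtype FPKM, with 0.1 FPKM added to each value, so that negative ratios mean fewer transcripts in mutants. A locus was counted as past the fold when the ratio reached 1.5-fold in either direction. Of the 9 genes averaging 1 FPKM or more, 2 were lower by at least 1.5-fold (*Nr6a1* and *Lin28a*) and 0 were higher. Over all 12463 loci at that level, 1.47% were lower and 3.51% were higher by that fold. At a looser limit, a log2 ratio of -0.32 or below, 5 of the 9 were lower, beside 4.98% of all loci. These shares stand as background only, since the ratios were known when the genes were chosen. The median log2 ratio was -0.34 over the 9 genes and -0.01 over all loci, whose central 95% ran from -0.45 to 0.70. Among loci averaging 5 FPKM or more, a level all 9 reached, 0.897% of 8917 loci were 1.5-fold lower.

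**Figure D3:**
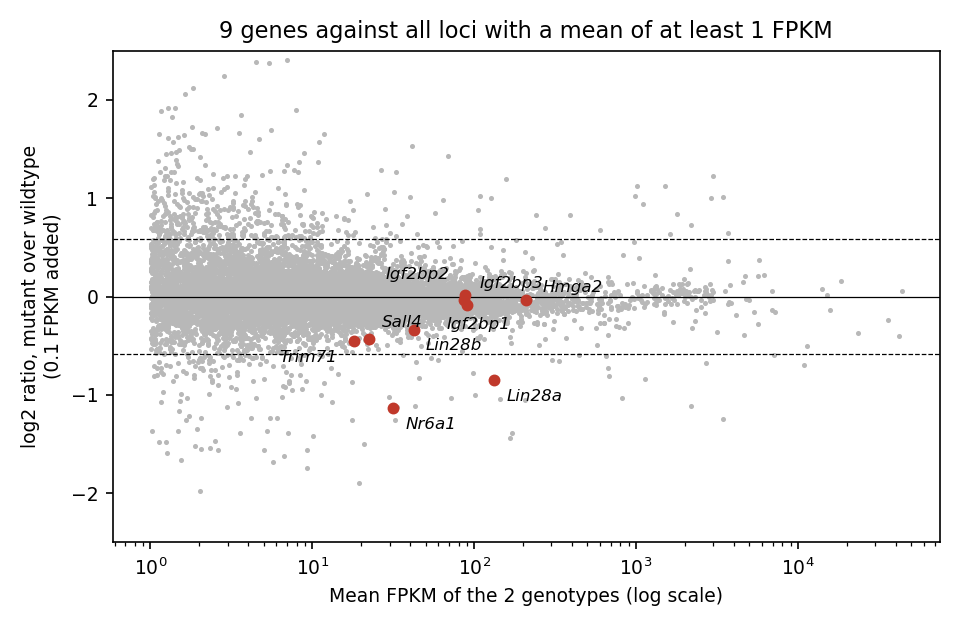
Log2 ratio of mutant over wildtype against the mean FPKM of both genotypes, for all loci averaging 1 FPKM or more (grey) and 9 of the 10 genes (red). Dashed lines mark 1.5-fold, 17 loci lie outside the drawn range of ±2.5, and *Nr6a1* and *Lin28a* sit below the lower line while the *Igf2bp* genes and *Hmga2* sit close to 0.

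The LIN28 genes themselves were both lower in mutant embryos, by unequal amounts. *Lin28a* was at 94.9 FPKM in mutants and 171 FPKM in wildtype embryos, a log2 ratio of -0.85, so that mutants held 55.5% of the wildtype level. *Lin28b* was at 37.3 and 47.1 FPKM, a log2 ratio of -0.34. *Lin28a*, the paralog of embryonic stem cells and the early embryo, was thus past the 1.5-fold limit, and *Lin28b*, known also from fetal liver and later tissues, was not. Within each genotype the level of *Lin28a* was 2.55 times that of *Lin28b* in mutants and 3.63 times in wildtype embryos, a quotient that no scaling between the genotypes can change. Summed over both genes, LIN28 transcripts were at 132 FPKM in mutants and 218 FPKM in wildtype embryos, and *Lin28a* made up 71.8% and 78.4% of the sum. *Lin28a* lies on chromosome 4 of MM10 from 134003261 to 134019118 and *Lin28b* on chromosome 10 from 45376619 to 45470201, both on the minus strand.

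*Nr6a1* had the lowest ratio of the 10 genes. It was at 19.6 FPKM in mutants and 43.3 FPKM in wildtype embryos, a log2 ratio of -1.14 or 2.20-fold, and mutants held 45.3% of the wildtype level. Counted from the most negative, this ratio ranked 24 among the 8917 loci averaging 5 FPKM or more, and that of *Lin28a* ranked 47. *Nr6a1* lies on chromosome 2 from 38723372 to 38926461 on the minus strand, and the nearest loci on either side with at least 1 FPKM were *Psmb7*, a proteasome subunit gene (log2 ratio -0.05), and *Rpl35*, a ribosomal protein gene (0.01). The libraries did not record strand, and 7 annotated genes overlap this locus, 5 of them on the opposite strand, including *Nr6a1os*. The 2 of these with an entry in the table, *Mir181a-2* and *Mir181b-2*, are listed at 0 in both genotypes. Over such short microRNA loci a value of 0 may be a failed estimate. Overlap was judged over whole gene spans and not exons. Whether reads of the others enter the value of *Nr6a1* is therefore unknown. Annotated genes on the opposite strand also overlap *Lin28a*, *Trim71*, *Sall4*, *Igf2bp1*, *Igf2bp3* and *Hmga2*, so this limit is not particular to *Nr6a1*. *Nr6a1* transcripts stood at 2.08 times those of *Trim71* in wildtype and 1.29 times in mutant embryos.

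*Trim71* and *Sall4* had ratios between those of *Lin28a* and *Lin28b*. *Trim71*, the mouse counterpart of worm lin-41 and a repressor of mRNAs in progenitor cells, was at 15.2 FPKM in mutants and 20.9 FPKM in wildtype embryos, a log2 ratio of -0.45. *Sall4* was at 19.1 and 25.7 FPKM, a log2 ratio of -0.43. Neither reached 1.5-fold, and their ratios ranked 131 and 150 from the most negative among loci with at least 5 FPKM, beside 261 for *Lin28b*. *Trim71* lies on chromosome 9 from 114507136 to 114565237 and *Sall4* on chromosome 2 from 168748331 to 168767201.

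*L1td1* was scarcely transcribed, at 0.389 FPKM in mutants and 0.775 FPKM in wildtype embryos. Its log2 ratio of -0.84 is that of a gene under 1 FPKM and rested on the amount added, being -0.98 with 0.01 FPKM and -0.35 with 1 FPKM added. It was therefore left out of the counts of genes past a fold and of the median ratio. *L1td1* lies on chromosome 4 from 98726754 to 98738486, on the plus strand.

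The IGF2BP genes and *Hmga2*, which are also let-7 targets, differed little. *Igf2bp1* was at 84.9 FPKM in mutants and 86.8 FPKM in wildtype embryos (log2 ratio -0.03), *Igf2bp2* at 87.9 and 87.2 FPKM (0.01), and *Igf2bp3* at 88.0 and 93.2 FPKM (-0.08). Their products bind and stabilise growth-related mRNAs, and their summed level was 261 FPKM in mutants and 267 FPKM in wildtype embryos. *Hmga2*, which encodes an architectural chromatin protein of growing embryonic tissue, was at 207 and 212 FPKM (log2 ratio -0.04). With all FPKM rescaled to the same total, the ratios of *Igf2bp1* (0.01) and *Hmga2* (0.01) turned slightly positive, and with short or unnamed loci left out that of *Igf2bp2* fell to -0.00464, so no direction is given for these 3 genes. The quotient of *Hmga2* over *Lin28a* was 2.18 in mutant and 1.24 in wildtype embryos. *Hmga2* lies on chromosome 10 from 120361213 to 120476935, *Igf2bp1* on chromosome 11 from 95957162 to 96005944, *Igf2bp2* on chromosome 16 from 22059009 to 22163299 and *Igf2bp3* on chromosome 6 from 49085218 to 49214954.

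The number of let-7 matches did not order the genes by their ratio. *Nr6a1*, with the most matches, was the lowest, but *Hmga2* and *Igf2bp1* (log2 ratios -0.04 and -0.03) had the same 4 matches as *Trim71* and *Lin28b* (-0.45 and -0.34), and *Lin28a* (-0.85) had 2. *Nr6a1* was the only gene with 8 or more matches among the 10344 genes with a single-symbol locus, an annotated 3′ UTR and at least 1 FPKM. Over these genes, the median log2 ratio was -0.01 for 9244 genes with no match, -0.01 for 956 genes with 1 match and -0.03 for 144 genes with 2 or more. Genes lower by at least 1.5-fold made up 0.833%, 1.05% and 2.08% of these classes. The last share came from 3 genes, of which *Nr6a1* and *Lin28a* are 2. With the 10 genes left out it was 1 of 138 (0.725%), and the median was -0.03. That count depends on the exact limit, since *Trim6*, with 6 matches and a log2 ratio of -0.58, fell just short of it. Genes with more matches also had longer 3′ UTRs, with medians of 1095, 2256.5 and 3800 bases. The mature let-7 microRNAs were not measured. The table lists 12 let-7 family loci, 10 of which are at 0 in both genotypes. *Mirlet7d*, over a locus of 103 bases, is listed at 0 FPKM in mutants and 254 FPKM in wildtype embryos. *Mirlet7i* is at 0.629 and 1.01 FPKM. A value of 0 over a locus as short as that of *Mirlet7d* may be a failed estimate. Among the 10 loci at 0 in both genotypes, *Mirlet7c-1*, *Mirlet7g*, *Mirlet7f-2* and *Mir98* are listed over 20778 to 362161 bases. A short locus does not describe these. No difference is read from any of the 12 loci.

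**Figure D4:**
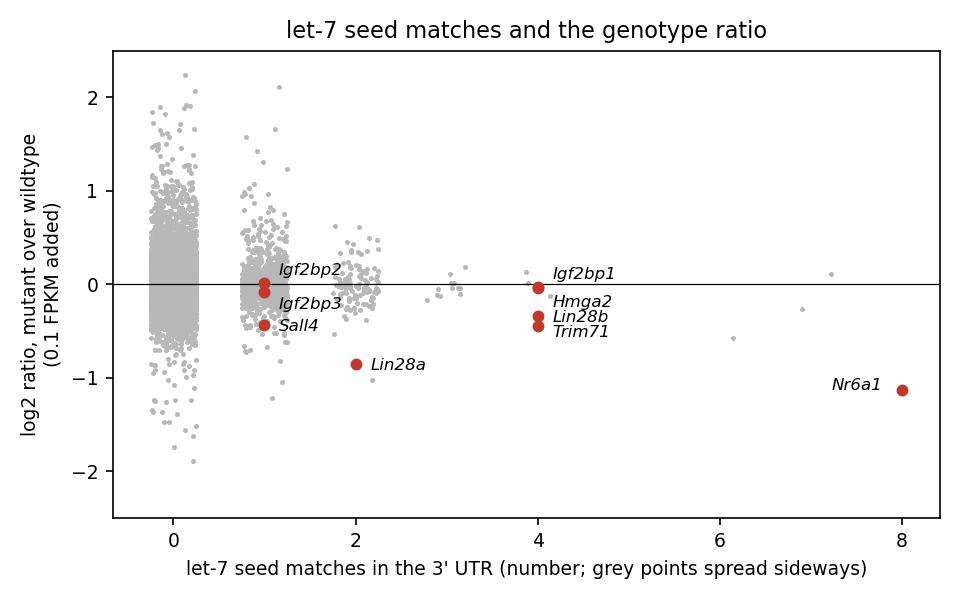
Log2 ratio of mutant over wildtype against the number of let-7 seed matches in the 3′ UTR, for genes with at least 1 FPKM (grey, spread sideways around the whole number) and 9 of the 10 genes (red). The red points at 4 matches run from -0.45 to -0.03, and *Nr6a1* stands alone at 8 matches with -1.14.

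Other genes of the pathway were taken from lists chosen with earlier results of these data known, so their counts are a description only. Of 22 genes for let-7 processing and LIN28 cofactors at 1 FPKM or more, 0 were past 1.5-fold in either direction, with a median log2 ratio of -0.05 and a range of -0.39 to 0.34. *Drosha*, the nuclear microRNA processing enzyme, was at 57.2 FPKM in mutants and 59.7 FPKM in wildtype embryos. *Dicer1*, which cuts the hairpin in the cytoplasm, was at 28.6 and 31.6 FPKM. *Zcchc11* and *Zcchc6*, the terminal uridylyl transferases that act with LIN28 on let-7 precursors, had log2 ratios of 0.01 and -0.08, and *Dis3l2*, the exonuclease that degrades the uridylated precursor, had 0.23. The lowest of the list was *Khsrp*, an RNA-binding protein that promotes let-7 maturation, at 44.8 and 58.8 FPKM. Of 29 other let-7 targets, 0 were lower and 1 was higher by 1.5-fold (median -0.03). The latter was *Onecut2*, a transcription factor of neurons and endoderm, at 2.28 and 1.28 FPKM. *Arid3b* had the lowest ratio of that list (24.2 and 34.1 FPKM, log2 ratio -0.49), and *Mycn* was at 49.2 and 57.1 FPKM.

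Paralogs of the 10 genes and transcripts bound by IGF2BP proteins gave no value past 1.5-fold. Among 12 paralog loci the median log2 ratio was 0.01, with *Sall1* at the low end (17.9 FPKM in mutants and 23.3 FPKM in wildtype embryos, -0.37). Its relative *Sall2* was at 32.3 and 30.4 FPKM, and *Hmga1*, the paralog of *Hmga2*, at 820 and 886 FPKM. Of 6 IGF2BP cargo transcripts, *Igf2* was at 516 and 532 FPKM, *H19* at 952 and 964 FPKM and *Cd44* at 2.43 and 3.43 FPKM, with a median log2 ratio of -0.03.

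Factors of pluripotency and of the early embryo were mostly near the lower end of detection. Of 33 genes, 22 were under 1 FPKM, including *Nanog* and *Pou5f1*, which was at 0.338 FPKM in mutants and 0.557 FPKM in wildtype embryos. Of the other 11, 1 was lower by 1.5-fold and 0 were higher, with a median log2 ratio of -0.13. The lower one was *Zscan10*, a zinc finger factor of embryonic stem cells, at 1.33 and 2.09 FPKM. *Dnmt3b*, the de novo DNA methyltransferase of the early embryo, was at 13.5 and 18.5 FPKM (log2 ratio -0.44), while *Dnmt3a*, its later-acting relative, was at 23.4 and 20.8 FPKM. For the trunk to tail transition, the ligand gene *Gdf11* was at 10.1 and 8.04 FPKM (log2 ratio 0.33), and *Hoxd13* was the 1 of 10 genes past 1.5-fold, at 4.01 and 2.45 FPKM. The median log2 ratio of these 10 genes was 0.00, with 5 below 0 and 5 above. *Pcsk5* was the lowest of them, at -0.21.

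Markers of several cell types, from lists likewise chosen with earlier results known, also differed between the genotypes. Of 15 tail bud markers, all at 1 FPKM or more, 10 were lower and 0 higher by 1.5-fold, with log2 ratios from -1.74 to 0.04 and a summed level of 59.0 FPKM in mutants and 102 FPKM in wildtype embryos. *Cdx2* and *T*, which define posterior progenitors, were at 3.22 and 3.23 FPKM in mutants and 10.1 and 7.75 FPKM in wildtype embryos. All 13 neuron markers at 1 FPKM or more were higher by 1.5-fold, with a summed level over all 14 loci found of 211 and 81.3 FPKM. Of 10 erythroid markers, 8 were higher by that fold. The summed level of all 10 was 12735 and 6035 FPKM. Most of that sum came from the globin genes *Hba-x*, *Hbb-y* and *Hbb-bh1*, at 4602, 4191 and 3845 FPKM in mutants. Of 6 visceral endoderm markers, 4 were lower and 1 was higher, the summed level of all 11 being 33.8 and 44.2 FPKM. Of 11 germ cell markers, 7 were under 1 FPKM, with *Ddx4* and *Dazl* at most 0.478 FPKM in either genotype, and 0 of the other 4 were past 1.5-fold (summed level of all 11 at 23.1 and 25.7 FPKM). The part of these cell types in the levels of the 10 genes was not tested. In whole embryos, fewer cells that express a gene and less RNA per cell cannot be told apart. The table gives no stage or litter for single embryos.

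**Figure D5:**
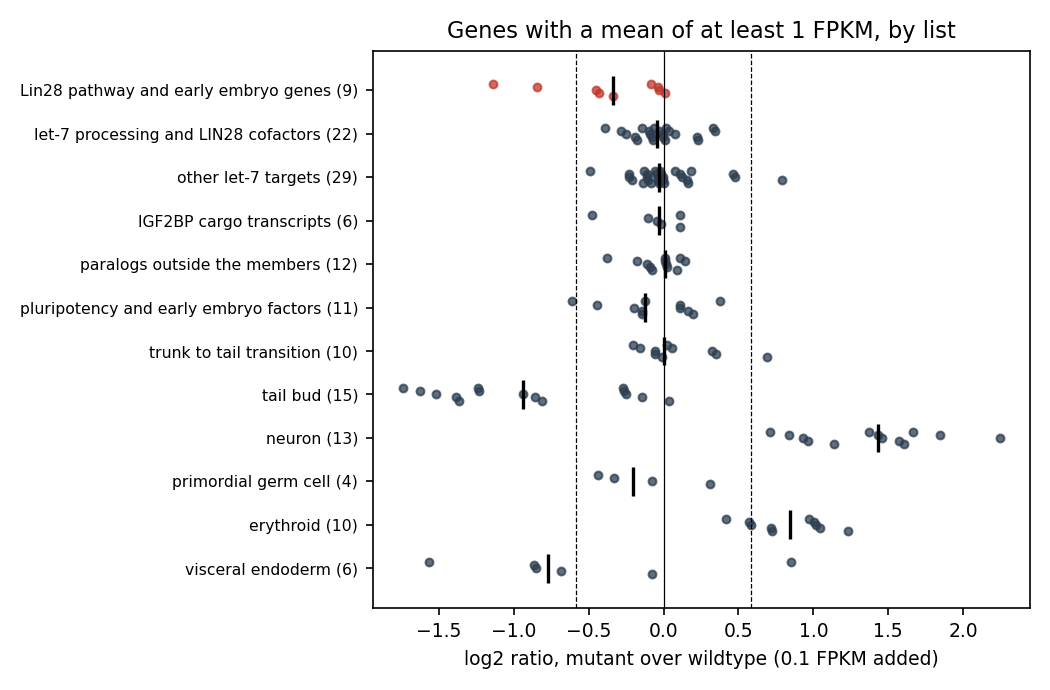
Log2 ratio of mutant over wildtype for each gene with at least 1 FPKM, by gene list, with the number of loci in brackets, the median as a black bar and 1.5-fold as dashed lines. The 9 genes at the top run from -1.14 to 0.01, the lists of the pathway centre near 0, tail bud markers lie mostly to the left and neuron and erythroid markers to the right.

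The loci next to the 10 genes were examined as neighbours on the same chromosomes. Of the 20 nearest loci with a symbol and at least 1 FPKM, 1 on each side of each gene, 0 were past 1.5-fold, with a median log2 ratio of 0.00 and a range of -0.28 to 0.49. *Dhdds*, which ends 2267 bases from *Lin28a*, was at 16.2 FPKM in mutants and 13.3 FPKM in wildtype embryos, opposite in direction to *Lin28a*. *Bves*, 4072 bases from *Lin28b*, was at 4.89 and 5.85 FPKM, and *Atp9a*, 6531 bases from *Sall4*, at 6.46 and 4.64 FPKM.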

How the data were processed

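The authors sequenced RNA of 6 E9.5 embryos, 3 of each genotype, and deposited FPKM values made with TopHat2 2.0.6, Bowtie2 2.0.2 and Cuffdiff 2.0.2 on mm10, per the submitters' processing notes. These are 1 pooled value per genotype and locus, so depth, counting intervals and spread between embryos are unknown and no test was run. The table's columns for mutant and wildtype were matched to genotypes through the study's own copy of it. Its fold changes, test statistics, p-values and q-values hold the authors' comparison and were not used.

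Log2 ratios used a pseudocount of 0.1 FPKM, loci averaging 1 FPKM or more and a limit of 1.5-fold. Locus starts were counted from 1, since 8918 of 19970 symbols then equalled the RefSeq start, against 571 otherwise. Of 22356 loci with 1 symbol, 17639 matched a GENCODE M21 gene with a 3′ UTR. The steps were run on simulated data with planted changes and planted seed matches, which checks the code and not the differences given here. The genes, lists and tests were chosen with earlier results of these data known. Genes named were the 10, list genes past 1.5-fold (at most 8 per list) or with a role that matters, nearest loci and *Smchd1*. Alternatives changed the pseudocount, filter, scaling, fold and seed match. Python 3.11.15, numpy 2.4.6 and pandas 2.3.3 were used.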

Additional observations from a re-analysis of the deposited data

How the results depend on the processing

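Of 189 values recomputed under other settings, 176 moved by at most 0.1 on the log2 scale (counts, by at most 1.5 times), 13 moved further and 0 turned round a ratio past 1.5-fold. The number of lower genes was 1 at 2-fold and 5 at the looser limit of 0.32 on the log2 scale, in place of 2. Over the 5 alternatives for single genes, the log2 ratio stayed between -1.15 and -1.09 for *Nr6a1*, -0.86 and -0.81 for *Lin28a*, -0.47 and -0.41 for *Trim71*, -0.45 and -0.39 for *Sall4* and -0.35 and -0.29 for *Lin28b*. The scalings moved the median of all loci by at most 0.04. Among lists, 9 of 84 medians moved by more than 0.1, those of the visceral endoderm markers (0.00 at a mean of at least 5 FPKM) and of the pluripotency factors (-0.01 at the same filter) losing most of their size. No alternative for let-7 site classes moved a median by more than 0.1, but these medians are themselves smaller than 0.1. With all FPKM rescaled to the same total they turned positive, at 0.04, 0.03 and 0.01 for 0, 1 and 2 or more matches. Leaving out each embryo was not run, because the table holds 1 pooled value per genotype. No paired analysis was possible because no value per embryo was used.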

Other observations

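Besides 5 of the 10 genes, 6 genes with at least 1 FPKM carried 4 or more let-7 seed matches, and these were looked up after the matches had been counted. They were *Mcf2l* and *Nudt12* with 7 matches each, *Trim6* with 6, and *Hic2*, *Zbtb37* and *D10Wsu102e* with 4 each. With 0.1 FPKM added, none of the 6 was past 1.5-fold, and 3 ratios were below 0 and 3 above. The lowest was *Trim6*, at 2.05 FPKM in mutants and 3.10 FPKM in wildtype embryos (log2 ratio -0.58). It lay so near the limit that the amount added decided its place. *Hic2*, with a 3′ UTR of 4262 bases, was at 13.3 and 13.2 FPKM (log2 ratio 0.01), too close to 0 for a direction. The annotated 3′ UTR of *D10Wsu102e* spans 122583 bases, so its count of matches may reflect the annotation.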
